A study of Mus musculus with 8 samples.

Results

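The genes described here are the ubiquitin-conjugating enzymes (E2 enzymes) whose symbols start with Ube2, without Ube2l6, measured in the distal colon of mice after appendicitis and appendicectomy or after sham operations. They were chosen by symbol: a probe set counted when Ube2 was its only gene name, and a gene with several was read from the one whose mean was highest. This gave 29 of the 16645 genes on the array, with 41 probe sets behind them. Another 4 probe sets that carried a Ube2 symbol together with a second gene were left out. One of the 29, Ube2cbp, encodes a protein that binds the E2 enzyme Ube2c and is not itself an E2 enzyme, and Ube2v1 and Ube2v2 encode E2-like proteins without the active-site cysteine.

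Ubiquitin is a small protein that cells attach to other proteins. An E1 enzyme activates it, an E2 enzyme takes it over on a cysteine, and an E3 ligase directs its transfer to the substrate. The E2 enzyme largely decides which kind of chain is built: some chains send the substrate to the proteasome, others serve in signalling or DNA repair, and a few E2 enzymes carry related modifiers such as NEDD8 or ISG15. In the gut, ubiquitin chains take part in the division of crypt cells, in the removal of misfolded secretory proteins and in NF-kB signalling.

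Both groups were male BALB/c mice, an inbred strain, labelled as 5 weeks old, and the piece taken was the most distal colon. In the AA group appendicitis was induced at the lymphoid follicles of the caecum and appendicectomy followed 1 week later. The SS group had a first and a second sham operation, also 1 week apart, so both groups went through repeated laparotomy. Each group had 4 arrays, called biological replicates in the series text, and each of the 2 batches named in the labels held 2 arrays of each group. A harvest day is not among the array labels; the authors' gene set list carries 3 days after appendicectomy in its name.

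The values are log2 expression on whole-transcript arrays, and differences below are AA minus SS in log2 units, tested with limma across 18154 probe sets with batch as a term. The 8 arrays had medians of 6.93 to 6.99 and correlated with each other at 0.975 to 0.996. SS replicate 1 stood apart: the 75th percentile of its values was 8.19, against 8.30 to 8.41 in the other arrays, and among the 8215 genes at or above the median level its median distance from the gene's 8-array mean was -0.15, against -0.046 to 0.083 elsewhere. Of 15 colonocyte and goblet cell markers 14 were measured, with levels of 11.49 to 13.76, all above the median level of 7.13. Of these 14, 10 were higher in AA, with a median difference of 0.048, and 2 had an unadjusted p under 0.05 (Krt20, a keratin of surface colonocytes, at 0.35, and Car4, a carbonic anhydrase, at 0.26). Their list mean was lowest in SS replicate 1, at -0.14, against -0.030 to 0.084 in the other arrays. The tissue is bulk colon, where fewer cells of a type and less RNA per cell cannot be told apart. The authors' deposited table lists the set UBIQUITIN_MEDIATED_PROTEOLYSIS as raised in AA, with a normalized enrichment score of 2.05 and 21 enriched genes, but does not name the genes.

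The promoters of Ube2s, Ube2a and Ube2c are shown because Ube2s and Ube2a had the smallest p-values of the 29 genes, and because Ube2c works with Ube2s on the same ligase. Each line gives 300 bases from RefSeq, build GRCm38.p6, 5′ to 3′ on the gene's strand, from 250 bases before to 50 bases after the annotated start. Capitals mark any of 4 motifs on either strand: the GC box GGGCGG, the CCAAT box, the cell-cycle element TTTGAA (known as CHR) and the core of the interferon-response element, which is GAAA, any 2 bases, then GAAA.
Ube2s, chr7:4812291-4812590, minus strand: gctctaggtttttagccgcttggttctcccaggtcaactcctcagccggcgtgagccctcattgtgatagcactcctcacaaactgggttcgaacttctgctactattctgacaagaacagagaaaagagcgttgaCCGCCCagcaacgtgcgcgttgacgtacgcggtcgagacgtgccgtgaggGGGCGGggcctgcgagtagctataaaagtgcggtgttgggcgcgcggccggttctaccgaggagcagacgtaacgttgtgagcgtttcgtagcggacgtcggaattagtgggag
Ube2a, chrX:36874045-36874344, plus strand: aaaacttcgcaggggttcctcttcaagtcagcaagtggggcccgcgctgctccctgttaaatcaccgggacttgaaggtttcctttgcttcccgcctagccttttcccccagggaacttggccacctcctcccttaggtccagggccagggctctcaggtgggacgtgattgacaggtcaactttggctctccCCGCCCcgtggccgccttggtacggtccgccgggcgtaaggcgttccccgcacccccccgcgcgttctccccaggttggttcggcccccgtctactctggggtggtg
Ube2c, chr2:164769679-164769978, plus strand: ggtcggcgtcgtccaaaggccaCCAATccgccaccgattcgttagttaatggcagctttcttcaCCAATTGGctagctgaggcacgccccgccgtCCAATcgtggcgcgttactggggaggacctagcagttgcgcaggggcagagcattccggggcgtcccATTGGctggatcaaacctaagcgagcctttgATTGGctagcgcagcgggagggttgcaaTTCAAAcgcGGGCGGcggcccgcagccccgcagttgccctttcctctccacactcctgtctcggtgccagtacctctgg

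The Ube2c window held 1 CHR match, 1 GC box and 6 CCAAT matches, of which 2 overlap on opposite strands. The Ube2s window held 2 GC boxes and the Ube2a window 1, and neither held a match to the other 3 motifs. RefSeq promoter windows were found for 23 of the 29 genes, 31 windows in all. A GC box was present in 83.9% of these windows, against 35.7% of the 32851 windows of all genes. A CCAAT match was present in 19.4% of them, against 37.4% of all windows, and a CHR match in 9.68%, against 17.9%. The interferon-response core was in 0 of the 31 windows and in 3.44% of all windows. The window of Ube2l6, an interferon-induced gene, held 0 matches to it as well, so the absence of these letters says nothing about how a gene responds.

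As a group, the E2 genes lay slightly above their SS levels. In AA colon 28 of the 29 had the higher mean, which is 96.6%, against 52.2% of all genes and 57.7% of the genes at or above the median level, where 24 of the 29 lie. With quantile normalization of the arrays the count was 27, against 48.3% of all genes. The median difference over the 29 genes was 0.14, against 0.0066 over all genes and 0.028 over the genes at or above the median level. It was 0.081 without SS replicate 1, 0.088 without AA replicate 1 and 0.037 in batch 2 alone, where 19 of the 29 were higher. The differences ran from -0.018 in Ube2r2 to 0.37 in Ube2s. These are small steps: the median SE of a difference was 0.10, and the median SD was 0.11 within the 4 AA arrays and 0.12 within the 4 SS arrays.

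Markers of other cell types differed between the same groups. All 10 fibroblast and matrix markers were higher in AA (median difference 0.63, 9 with an unadjusted p under 0.05), and their list mean ran from 0.22 to 0.47 in AA and from -0.54 to 0.042 in SS. All 8 B cell markers were lower (median -0.46, 7 with an unadjusted p under 0.05), with list means of -0.60 to -0.079 in AA and 0.16 to 0.47 in SS. The 10 smooth muscle and 10 macrophage markers were all higher, by medians of 0.32 and 0.55, and 7 of 8 mesothelial markers by a median of 0.75, with list means that overlapped between the groups. Of the T cell markers 1 of 8 was higher (median -0.13), and of the adipocyte markers 0 of 9 (median -0.53). None of these markers passed the adjusted test, and the part of these cell types in the E2 values was not tested.

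No E2 gene passed the test. In limma 0 of the 29 had an adjusted p under 0.05 over all probe sets, as had 0% of the whole table, and the adjusted p-values ran from 0.401 to 0.991. At an unadjusted p under 0.05, 3 genes were higher in AA (10.3% of the 29, against 5.67% of all genes) and 0 were lower (against 2.29%). That count was 2 without SS replicate 1, against 5.89% of all genes. It was 1 without AA replicate 1 or without AA replicate 2, and for these the share of all genes is not given. The AA and SS ranges did not overlap, with AA on top, in 2 genes, Ube2s and Ube2g2, which is 6.9% of the 29 against 4.33% of all genes. With quantile normalization the number was 4, against 3.66% of all genes. In 0 genes was AA wholly below SS, against 1.84%.

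**Figure D1:**
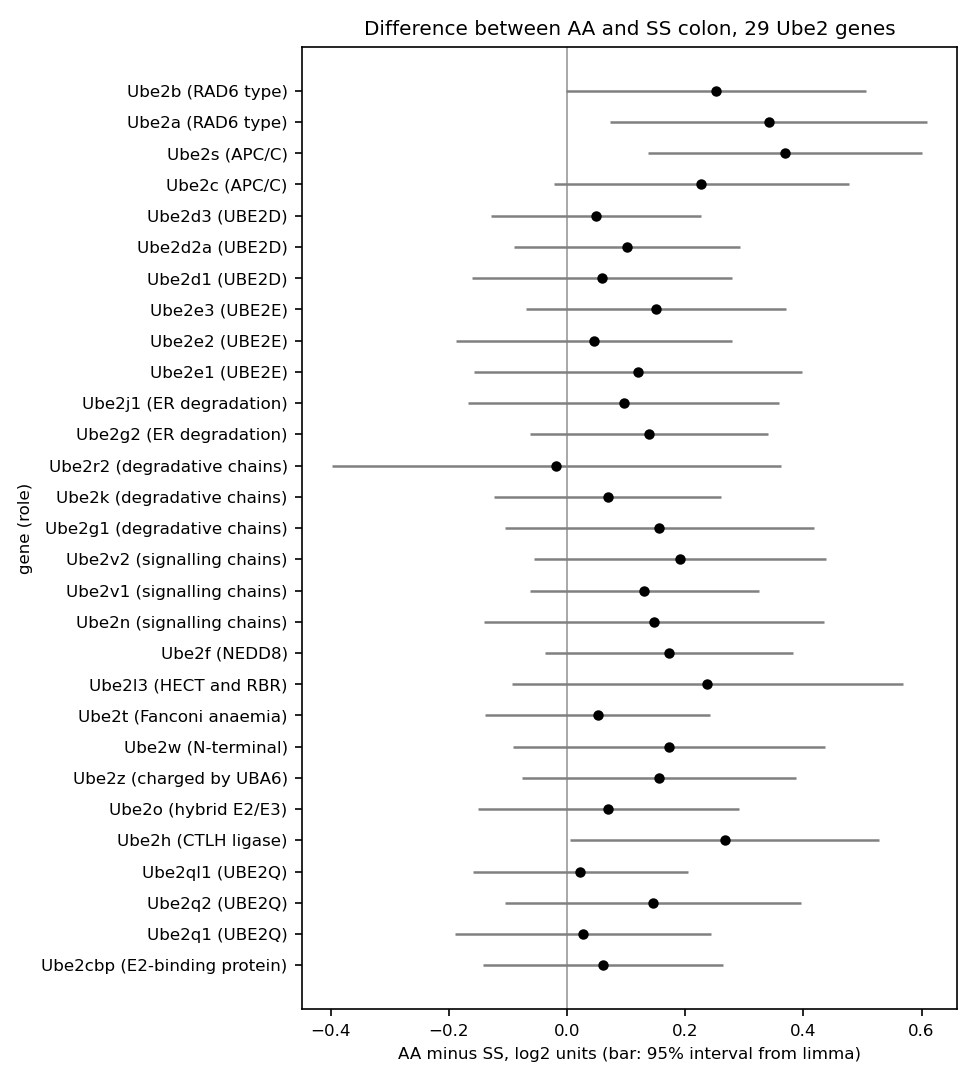
Difference between AA and SS in log2 units (horizontal axis) for each of the 29 Ube2 genes, ordered by role (vertical axis); points are limma estimates and bars their 95% intervals, with 4 arrays per group. The points lie right of 0 except for Ube2r2, and the bars of Ube2s, Ube2a and Ube2h do not cross 0 before adjustment over all genes.

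The E2 enzymes of the anaphase-promoting complex come first, since they held the smallest p. This ligase marks mitotic proteins for destruction: Ube2c starts the ubiquitin chain and Ube2s extends it. Ube2s read 9.03, 8.81, 8.75 and 9.07 in AA replicates 1 to 4 and 8.48, 8.61, 8.62 and 8.48 in SS replicates 1 to 4. The groups did not overlap, and the lowest AA array lay 0.13 above the highest SS array. The difference was 0.37 ± 0.10 (SE), or 1.29-fold, with a 95% interval of 0.14 to 0.60, an unadjusted p of 0.00566 and an adjusted p of 0.401 in limma. It was 0.38 in batch 1 and 0.36 in batch 2, and 0.34 without SS replicate 1. A second Ube2s probe set gave 0.39.

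Ube2c read 6.80, 6.81, 6.47 and 6.79 in AA and 6.48, 6.33, 6.58 and 6.58 in SS. Here 3 AA arrays stood above all SS arrays, while AA replicate 3 lay among the SS values. The difference was 0.23 ± 0.11 (SE), with an unadjusted p of 0.0698 and an adjusted p of 0.654 in limma, and it was 0.41 in batch 1 and 0.05 in batch 2.

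Markers of proliferating cells were set beside these because Ube2c and Ube2s belong to dividing cells. Of 16 markers 15 were measured: 14 were higher in AA and 0 had an unadjusted p under 0.05. Their median was 0.078 in all, 0.31 in batch 1 and -0.12 in batch 2. The mean of the list, as distance from each gene's 8-array mean, was 0.20, 0.11, -0.18 and 0.06 in AA replicates 1 to 4 and -0.22, -0.089, 0.03 and 0.09 in SS replicates 1 to 4. AA replicate 3 was low both in this list and in Ube2c, and the part of the markers in the Ube2c and Ube2s differences was not tested. Ube2t, the E2 enzyme of the Fanconi anaemia DNA repair pathway, is also known from dividing cells. It read 4.71, 4.83, 4.69 and 4.89 in AA and 4.78, 4.69, 4.69 and 4.74 in SS, low signals that overlapped between the groups, with a difference of 0.05 ± 0.08 (SE). The APC/C subunits and coactivators themselves were higher in 9 of 16, with a median of 0.016, and 0 of them had an unadjusted p under 0.05 in either direction.

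**Figure D2:**
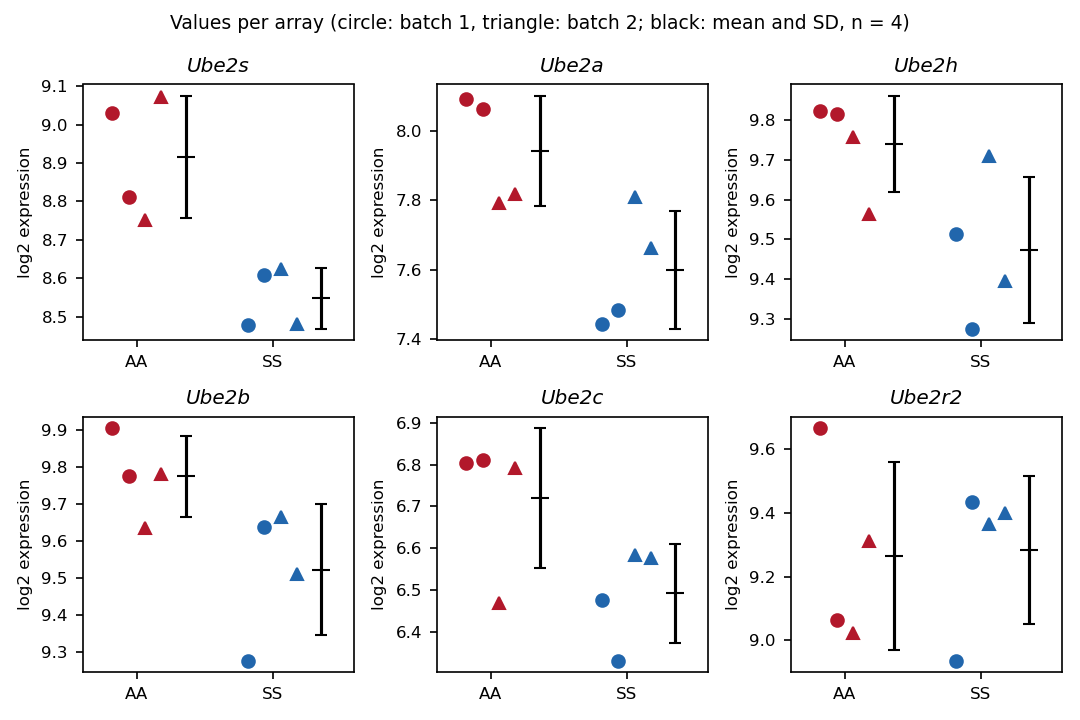
Log2 expression (vertical axis) of 6 E2 genes in each AA and SS array (horizontal axis), circles for batch 1 and triangles for batch 2, with the group mean and SD in black (n = 4). In Ube2s every AA point lies above the SS points, in Ube2a the batch 1 arrays are the ones far apart, and in Ube2r2 the groups overlap throughout; vertical axes start at different levels.

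Ube2a and Ube2b are the closely related mouse counterparts of the yeast enzyme Rad6, which puts single ubiquitins on histones and on the DNA replication clamp. Ube2a read 8.09, 8.06, 7.79 and 7.82 in AA and 7.45, 7.48, 7.81 and 7.66 in SS. AA replicates 1 and 2 were the high arrays and SS replicates 1 and 2 the low ones, and the groups overlapped slightly through AA replicate 3 and SS replicate 3. The difference was 0.34 ± 0.12 (SE), with an unadjusted p of 0.0181 and an adjusted p of 0.518 in limma. It lay almost wholly in batch 1, where it was 0.61, against 0.07 in batch 2. Ube2b read 9.90, 9.78, 9.63 and 9.78 in AA and 9.28, 9.64, 9.67 and 9.51 in SS, so the groups overlapped, with AA replicate 3 below SS replicates 2 and 3. Its difference was 0.25 ± 0.11 (SE), with an adjusted p of 0.620 in limma, and 0.15 without SS replicate 1.

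Ube2h is the E2 enzyme of the CTLH ligase, a complex counted among the regulators of metabolism and of red cell maturation. It read 9.82, 9.82, 9.76 and 9.56 in AA and 9.51, 9.27, 9.71 and 9.40 in SS. SS replicate 3 overlapped the AA arrays. The difference was 0.27 ± 0.12 (SE), with an unadjusted p of 0.0463 and an adjusted p of 0.611 in limma, and 0.26 in its other probe set.

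Among the E2 enzymes that build chains for the proteasome, the differences were small. Ube2g1, Ube2k and Ube2r2 ran from -0.018 to 0.16. Ube2r2, a relative of the cell-cycle enzyme Cdc34, was the 1 gene with a lower AA mean: it read 9.66, 9.06, 9.02 and 9.31 in AA and 8.94, 9.43, 9.36 and 9.40 in SS. Its highest and its lowest value both came from batch 1, and its difference of -0.018 ± 0.17 (SE) was 0.18 in batch 1 and -0.22 in batch 2. Without SS replicate 1 it was -0.16. Ube2g2 and Ube2j1, which serve the degradation of misfolded proteins from the endoplasmic reticulum, had differences of 0.14 and 0.096, and of 0.081 and 0.019 without SS replicate 1. Ube2g2, named for its lack of overlap after its values were seen, read 8.91, 9.03, 8.88 and 8.86 in AA and 8.64, 8.82, 8.85 and 8.82 in SS. The gap between its groups was 0.011, and its unadjusted p was 0.153 and its adjusted p 0.739 in limma.

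Ube2n builds chains used in NF-kB signalling and DNA repair, together with Ube2v1 or Ube2v2. The differences of these 3 genes were 0.15, 0.13 and 0.19, none at an unadjusted p under 0.05. Ube2n read 9.35, 9.22, 9.03 and 9.04 in AA and 8.71, 9.07, 9.09 and 9.18 in SS. The groups overlapped, and SS replicate 1 was the lowest array. Its difference was 0.39 in batch 1 and -0.10 in batch 2, so the direction turned, and it was 0.026 without SS replicate 1. Ube2v1 read 9.72, 9.61, 9.56 and 9.56 in AA and 9.42, 9.44, 9.60 and 9.46 in SS. Of its SS arrays only SS replicate 3 reached into the AA range.

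Ube2l3 works with HECT and RBR ligases, among them parkin and the complex that makes linear chains in NF-kB signalling. It read 10.77, 10.73, 10.52 and 10.47 in AA and 9.97, 10.55, 10.48 and 10.55 in SS. SS replicate 1 was far below the other arrays, which overlapped between the groups. Its difference of 0.24 ± 0.15 (SE) was 0.49 in batch 1, -0.016 in batch 2 and 0.072 without SS replicate 1. The 3 Ube2l3 probe sets disagreed, at 0.24, 0.23 and 0.019. RefSeq lists 3 pseudogenes with Ube2 names. Which copy or locus each probe set reads was not determined, for Ube2l3 or for the other Ube2 genes, Ube2s included. Of the 9 genes with several probe sets, 21 probe sets in all, the next widest spread was in Ube2v2, at 0.19, 0.19 and 0.12.

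The Ube2d genes serve many RING ligases and the Ube2e genes are their close relatives. The Ube2d differences ran from 0.049 to 0.10 and the Ube2e differences from 0.046 to 0.15. Ube2d3 read 12.03, 12.18, 12.11 and 12.10 in AA and 12.09, 12.02, 12.06 and 12.05 in SS, with a 95% interval of its difference from -0.13 to 0.23. The ranges of its groups overlapped, and its 3 probe sets gave 0.049, 0.044 and 0.030.

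Among E2 enzymes outside the main ubiquitin route, Ube2z receives ubiquitin from the alternative E1 enzyme Uba6, and Ube2f passes NEDD8 to cullins. Ube2z read 8.87, 8.74, 8.76 and 8.82 in AA and 8.46, 8.82, 8.74 and 8.55 in SS, and its difference of 0.16 ± 0.10 (SE) was 0.17 in batch 1, 0.14 in batch 2 and 0.081 without SS replicate 1. Ube2f read 7.18, 7.39, 7.34 and 7.19 in AA and 7.01, 7.17, 7.03 and 7.19 in SS, and its difference was 0.19 in batch 1 and 0.15 in batch 2. In both genes the ranges of AA and SS overlapped. Ube2w, which modifies protein N-termini, differed by 0.17, and Ube2o, a hybrid of E2 and E3, by 0.07. Without SS replicate 1 these were 0.10 and -0.014. The Ube2q genes ran from 0.023 to 0.15 and Ube2cbp differed by 0.062.

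The differences were mostly larger in batch 1. All 29 genes were higher in AA in batch 1 (against 55.2% of all genes) and 19 in batch 2 (against 51%), so 19 were higher in both, against 25.8% of all genes. The family's median came to 0.19 in batch 1 and 0.037 in batch 2, and that of all genes to 0.028 and 0.0045. For 27 of the 29 the batch 1 difference exceeded the batch 2 difference, as it did in 53.2% of all genes. A direct test of group by batch in limma found 0 E2 genes at an adjusted p under 0.05, with 0% of the whole table called, and 3 (Ube2a, Ube2n and Ube2e3) at an unadjusted p under 0.05, against 9.14% of all genes. The smallest adjusted p among the 29 was 0.524. For Ube2a the batch 2 difference was 0.54 lower than the batch 1 difference, at an unadjusted p of 0.00862.

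**Figure D3:**
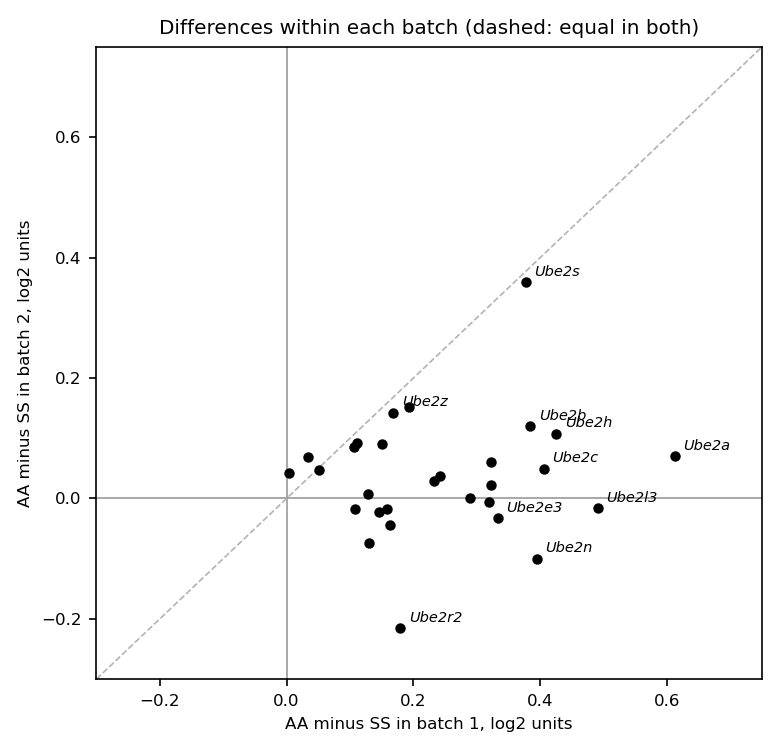
AA minus SS in batch 1 (horizontal axis) and batch 2 (vertical axis), both in log2 units, for each of the 29 genes (points), with 2 arrays per group in each batch. Ube2s lies close to the dashed line of equal differences at 0.38 and 0.36, and most other genes lie below it.

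SS replicate 1 was the lowest of the 8 arrays in 20 of the 29 genes, which is 69% against 25.5% of all genes and 42.1% of those at or above the median level. AA replicate 1 was the highest in 14, and the share of all genes is not given here. It was also the highest array by the median of the genes at or above the median level, at 0.083. AA replicate 1 and SS replicate 1 are both in batch 1. Batch means were equal on deposit, so the high and the low reading are not separate observations. The mean over the 29 genes, as distance from each gene's 8-array mean, was 0.15, 0.09, 0.0084 and 0.027 in AA replicates 1 to 4 and -0.19, -0.048, 0.035 and -0.071 in SS replicates 1 to 4. AA replicates 3 and 4 thus lay below SS replicate 3. Without SS replicate 1, 26 of the 29 genes were higher in AA, against 49.7% of all genes, and the lower ones were Ube2r2 (-0.16), Ube2q1 (-0.045) and Ube2o (-0.014). At an unadjusted p under 0.05 there were 2, against 5.89% of all genes. The median difference was then 0.081, against -0.0009 over all genes, and without AA replicate 1 it was 0.088. SS replicate 1 also had the highest mean of 9 adipocyte markers, 1.29, against -0.71 to 0.35 in the AA arrays and -0.19 to 0.29 in the other SS arrays, and the part of adipose tissue in the E2 values was not tested.

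**Figure D4:**
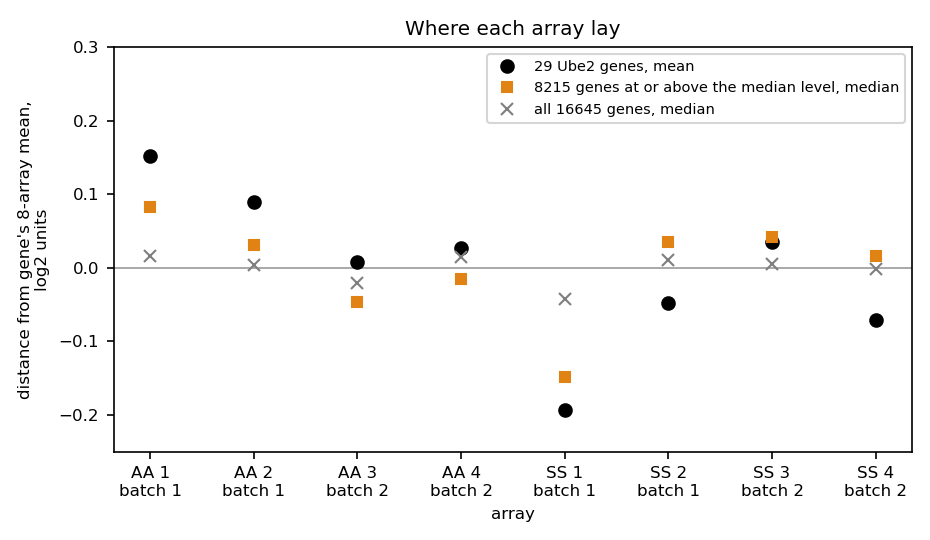
Distance from each gene's mean over 8 arrays, in log2 units (vertical axis), in each array (horizontal axis): black circles are the mean of the 29 Ube2 genes, orange squares the median of the 8215 genes at or above the median level, and grey crosses the median of all 16645 genes. SS replicate 1 is lowest in both gene groups, at -0.19 and -0.15, and AA replicate 1 highest, at 0.15 and 0.083.

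Other steps of the pathway, taken from lists of E1 enzymes, modifiers and ligases, are given beside the E2 genes, and 0 of their genes passed the adjusted test. Of 9 listed E1 genes 6 were measured, and Uba1, the main E1 enzyme for ubiquitin, was not among them. Uba6, the alternative E1 enzyme for ubiquitin, was measured and differed by 0.12. The 6 measured E1 genes, most of them for related modifiers, had a median difference of 0.12. Of these, 5 were higher and 0 reached an unadjusted p under 0.05. The leading one was Uba3, a subunit of the E1 enzyme for NEDD8, whose AA mean was 9.77 ± 0.08 (SD, n = 4) and SS mean 9.58 ± 0.06 (SD, n = 4), with an adjusted p of 0.621 in limma. E2-fold genes without a Ube2 name were higher in 5 of 8, with a median of 0.042. In the opposite direction lay Birc6, a giant inhibitor of apoptosis with an E2 domain, at -0.28 ± 0.13 (SE). Of 12 genes listed for ubiquitin and its relatives 6 were measured, with no ubiquitin gene among them. These relatives were higher in 4 of 6, with a median of 0.040. Ligases that work with these E2 enzymes were higher in 15 of 34, with a median of -0.043. Among the 34 ligases 1 had an unadjusted p under 0.05, the SUMO ligase Pias2, at -0.34 ± 0.11 (SE) and an adjusted p of 0.463 in limma. Whether the E2 genes differ from these lists was not tested.

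Ube2l6, the E2 enzyme that conjugates the interferon-induced modifier ISG15, gives the scale. It read 8.30, 8.22, 8.69 and 8.11 in AA and 7.64, 7.28, 7.31 and 7.34 in SS, with no overlap, a gap of 0.47 and a difference of 0.94 ± 0.14 (SE). Ube2l6 did not pass the adjusted test either, with an adjusted p of 0.237 in limma. Its value was known when it was set apart from the 29, so its place above them is a description. The largest difference among the 29, in Ube2s, was 0.37. For comparison, the 12 measured interferon-induced genes all lay above SS, by a median of 0.86. Each had an unadjusted p under 0.05 in limma, against 5.67% of all genes higher at that level, and 0 passed the adjusted test. AA replicate 3 had the highest list mean of these genes, 1.05. In that array the mean over the 29 E2 genes was 0.0084. AA replicate 3 was also the highest array for mesothelial (1.09), macrophage (1.00) and fibroblast markers (0.47), and the lowest AA array for the proliferation markers.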

How the data were processed

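RNA of 8 colon samples (4 AA, 4 SS), 100 ng each, was hybridised to Affymetrix MoGene arrays. The authors deposited log2 expression values, 1 per probe set and array, made with RMA, Affymetrix Power Tools and Partek 6.4, per the submitters' processing notes; the genome build and annotation release are not stated in the labels. The deposited values ran from 2.85 to 14.72. Batch means differed by at most 6e-05, so the batches already had equal means on deposit, which leaves AA minus SS as it was. Equal means tie the arrays of a batch, since a low array is balanced by higher ones in the same batch. Ranks, ranges and overlaps of arrays across batches therefore depend on this step. The authors' gene-set table holds, per the file headers, enrichment scores, counts of enriched genes, nominal p-values and q-values.

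Of 23442 probe sets 19713 had genes in the platform annotation; the 18154 with 1 symbol were tested, 1559 had several symbols and 3729 were unnamed here. All 29 E2 genes matched RefSeq Entrez identifiers (GRCm38.p6), and 0 symbols changed. R 4.3.3 and limma 3.58.1 (lmFit, eBayes) fitted batch and group with 5 residual degrees of freedom and no filter; Benjamini-Hochberg adjustment ran over all 18154, with 0.05 as threshold. The code was tested on simulated data. Counts over all genes used 1 probe set per gene. Values in every array were printed for the 5 higher and up to 5 lower genes with the smallest p and a panel of 10 E2 genes, 8 of them measured; other genes are given by range or named after their values were seen. The gene members, lists and tests were chosen with earlier results of these data known. Alternatives were batch terms, a dim-signal filter, normalizations, variance models, probe-set rules, thresholds and left-out arrays. Precision rests on the number of arrays, since there is no read depth.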

Additional observations from a re-analysis of the deposited data

Results flagged for a closer look

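In 7 of the 58 groups of 4 arrays examined (29 genes, 2 groups each), 1 array lay far from the other 3 by Dixon's test at the 95% level. The nominal rate of this test is about 1 in 20 groups, but equal batch means on deposit tie the arrays, so it need not hold here. The share of groups flagged over all genes was not computed, so the count cannot be read as particular to the E2 genes. SS replicate 1 was the low array in 4 of the 7 groups. It read 9.97 in Ube2l3 (the other SS arrays 10.48 to 10.55), 8.64 in Ube2g2 (8.82 to 8.85), 8.17 in Ube2q1 (8.39 to 8.43) and 8.94 in Ube2r2 (9.36 to 9.43). AA replicate 3 was the low array in Ube2c, at 6.47 (the other AA arrays 6.79 to 6.81), and in Ube2q1, at 8.24 (8.41 to 8.44). AA replicate 2 was the high array in Ube2q2, at 7.93 (7.62 to 7.65). The genes share arrays, so these are not independent events.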

How the results depend on the processing

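Across all settings 0 E2 genes passed an adjusted p under 0.05, or under 0.10 in the looser setting, and 0 were lower at an unadjusted p under 0.05 in limma. Of 214 values under other settings of the 12 genes read array by array, 206 kept their direction, and the smallest adjusted p was 0.186, for Ube2s without the batch term. The count of genes higher at an unadjusted p under 0.05 in limma was 3 as reported. It was 5 with no batch term, 5 in batch 1 alone, 1 in batch 2 alone and 1 at an unadjusted p under 0.01. With each array left out the count ran from 1 to 4. Except without SS replicate 1, the share of all genes under these settings is not given. The equal batch means on deposit had already used a residual degree of freedom. The fit with no batch term still counts it, so its p-values come out too small. The median difference, 0.14, fell to 0.037 in batch 2 alone and was 0.081 to 0.18 with each array left out. Further counts were added to the alternatives after the data were seen. The 28 genes with the higher AA mean became 27 with quantile normalization, 26 with median centring and 26 to 29 with each array left out. The 2 genes without overlap became 4 with quantile normalization, against 3.66% of all genes. Ube2r2 turned to 0.18 in batch 1 alone and ran from -0.18 to 0.079 with each array left out; in batch 2 alone Ube2n turned to -0.10 and Ube2l3 to -0.016. Over all 29 genes, 10 were lower in AA in batch 2 alone and 3 without SS replicate 1, Ube2q1 and Ube2o besides Ube2r2. The cause of these changes was not tested. Whether the replicate numbers pair the arrays could not be told from the values. Same-numbered arrays correlated at -0.44 to -0.093 in their deviations, and 0 of 8 correlated best with their own number. Same-numbered arrays share a batch, and the equal batch means on deposit push such correlations down. The check can therefore neither show nor exclude pairing. With the replicate block the count of higher genes was 2, and no gene's adjusted p passed. Signal limits Ube2t most, at 4.69 to 4.89 on arrays whose tested probe sets had a median level of 7.13.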
